A study of Mus musculus with 36 samples.

Results

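E0771 mouse breast cancer cells given BMS204352 were compared with E0771 cells given the solvent DMSO. The comparison holds 6 libraries of the 36 in the series, 3 for each treatment, chosen by their labels alone, and every expressed gene was tested. The series asks about transcription by SRF and its coactivator MRTFA, which senses free actin, and about potassium and calcium in cancer cells. Cells were held for 24 h in DMSO, or in 10 µM BMS204352. Neither group received KCl or the other channel opener of the series, and the labels name no genetic change in either. E0771 is an established line from a mammary adenocarcinoma, so both groups model tumour cells alone in culture, with no host tissue. The labels do not say whether the 3 libraries of a group came from separate cultures. P-values rest on the spread between libraries within groups, pooled over the 18 E0771 libraries of the series. That spread may be technical.

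BMS204352 opens the large-conductance calcium-activated potassium channel (BK) and potassium channels of the KCNQ family. Open potassium channels let potassium leave the cell, which makes the membrane potential more negative and so changes the driving force for calcium entry. The amino acid stress response, which recurs below, is the set of genes that the transcription factor ATF4 switches on when amino acids are short or when mitochondria or the endoplasmic reticulum are under stress. It includes enzymes that make amino acids, amino acid carriers, the synthetases that load amino acids onto tRNAs, and the stress factors DDIT3 (CHOP), TRIB3 and GDF15.

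Library totals were 34.68 to 41.01 M counts with DMSO and 35.83 to 42.24 M with BMS204352. BMS204352 replicate 3 stood apart from its group. Over 7851 well-expressed genes the median absolute log2 difference between libraries was 0.0594 to 0.0668 for pairs of DMSO libraries and 0.0642 between BMS204352 replicates 1 and 2. Replicate 3 lay 0.106 and 0.121 from the other BMS204352 libraries and 0.159 to 0.166 from the DMSO libraries. Counts over gene lists and the leading genes are therefore given with replicate 3 and without it, and other single genes with all 3 replicates unless stated. Mitochondrially encoded transcripts took 0.626 to 0.72% of counts with DMSO, and 0.522, 0.786 and 0.887% in BMS204352 replicates 1, 2 and 3. Of the epithelial markers, Krt8 stood at 198 to 221 CPM (counts per M of library total) over the 6 libraries, Krt5 had 0 counts, and Epcam was at or below 0.173 CPM. The mesenchymal filament gene Vim stood at 3595 to 3706 CPM with DMSO and 4102 to 4166 with BMS204352.

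Of 13357 genes tested with edgeR's quasi-likelihood test, 3028 (22.7%) passed a Benjamini-Hochberg adjusted p below 0.05. With BMS204352, 1516 were higher (11.3%) and 1512 lower (11.3%). Most changes were small. The median fold was 1.24 among genes that rose and 1.2 among genes that fell, and 100 rose and 65 fell by at least 2-fold. Without replicate 3, 2346 of 13658 genes passed (17.2%), 1174 higher (8.6%) and 1172 lower (8.58%), and 43 and 56 of them moved by at least 2-fold. Both fits called 2068 of the same genes, 68.3% of the first set and 88.2% of the second, with 0 in opposite directions. In bulk RNA, a change in how much of a transcript each cell holds and a change in how many cells hold it cannot be told apart.

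**Figure D1:**
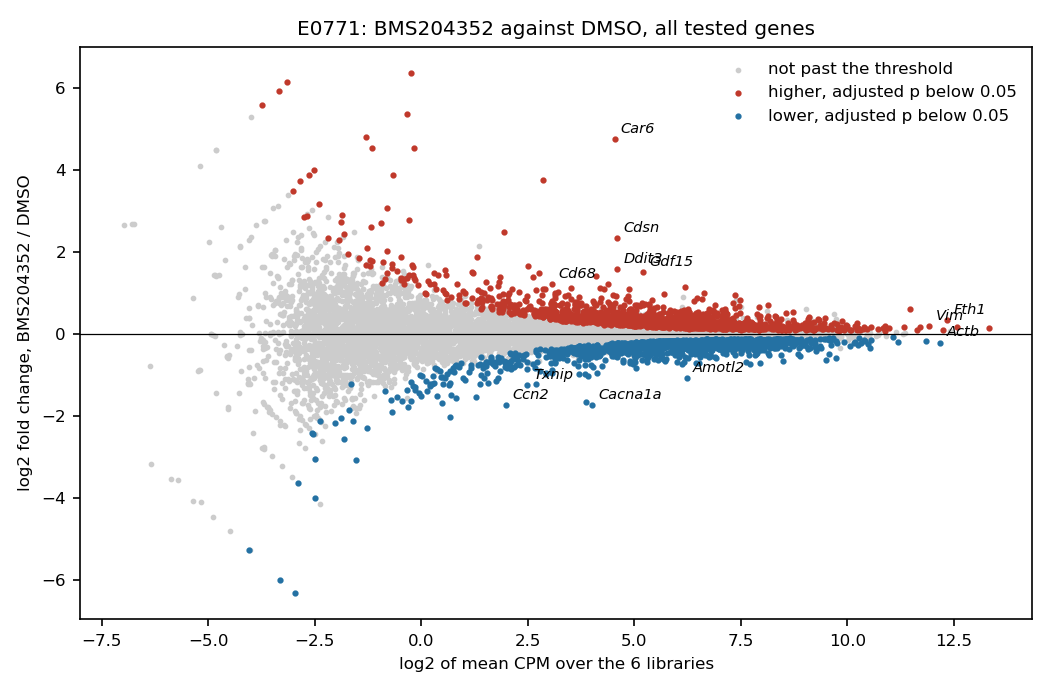
Log2 fold change of BMS204352 over DMSO (vertical axis) against the log2 of the mean CPM over the 6 libraries (horizontal axis, both log2), 1 point per tested gene. Red points are the 1516 genes higher and blue points the 1512 genes lower at an adjusted p below 0.05, Car6 stands at 4.75, and the widest fold changes, at the left, belong to genes with few counts.

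Leading genes were ranked among called genes whose log2 CPM averaged 2 or more and whose 3 BMS204352 and 3 DMSO libraries did not overlap. Of all 13357 genes tested, 4748 (35.5%) had no overlap. The largest rises were led by Car6 (chr4:150187015-150201332), which encodes a secreted carbonic anhydrase, and by stress-response genes. Car6 stood at 1.85, 1.68 and 1.5 CPM with DMSO and at 16.1, 9.15 and 109 with BMS204352. The separation of its groups was a condition of the ranking, and replicate 3 was far above the rest. The rise was 4.75 ± 0.93 on the log2 scale (SE, n = 3 against 3, edgeR adjusted p = 0.00291), and 2.91 without replicate 3 (adjusted p = 0.0034). When the 6 compared libraries were fitted alone, the calls of Car6, Cdsn, Gdf15, Ddit3, Chchd10, Atf3 and Soat2 were lost, at log2 values within 0.01 of those given here. Cdsn, which encodes a skin adhesion protein, stood at 8.31, 8.8 and 6.98 CPM with DMSO and at 20.4, 14.1 and 86.1 with BMS204352. It rose by 2.34 ± 0.57 (edgeR adjusted p = 0.0107), and by 1.11 without replicate 3.

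Gdf15, a secreted cytokine of stressed cells, went from 19.9, 20.5 and 17 CPM to 42.9, 37.1 and 83.3, a 2.86-fold rise (log2 1.52 ± 0.29, edgeR adjusted p = 0.00243), and a 2.09-fold rise without replicate 3. Ddit3, the transcription factor CHOP, went from 14, 12.3 and 10.4 CPM to 23.8, 19.1 and 65.7. Here replicate 3 was again the highest library, and the log2 rise of 1.58 ± 0.39 was 0.81 without it (edgeR adjusted p = 0.0113 and 0.0114). The stress gene Gadd45a (1.42, and 1.06 without replicate 3), the epidermal growth factor family ligand Areg (1.39 and 1.05), the mitochondrial protein gene Chchd10 (1.66 and 0.96) and the stress transcription factor Atf3 (1.22 and 0.63) also rose in both fits. The calls of Chchd10 and Atf3 were lost without DMSO replicate 1 or 2. Soat2, which esterifies cholesterol, rose by 1.5 (edgeR adjusted p = 0.029), and without replicate 3 its value of 0.68 did not pass (adjusted p = 0.0719).

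Cd68, a lysosomal glycoprotein gene used as a macrophage marker, rose almost alike in all 3 treated libraries. It stood at 4.83, 5.32 and 5.08 CPM with DMSO and at 11.4, 12 and 12 with BMS204352, a log2 rise of 1.22 ± 0.13 with replicate 3 and 1.21 without it (edgeR adjusted p = 1.11e-07 and 1.22e-07). It was the 1 leukocyte marker of 5 tested that passed, in both fits. Ptprc, Adgre1 and Tyrobp, which define leukocytes and macrophages, had 0 counts in all 6 libraries. The summed level of the 13 leukocyte markers, Cd68 among them, was 11.7 to 13 CPM with DMSO and 17.6 to 19 with BMS204352. That sum rose by no more than Cd68 alone did, so the other markers together were not higher. Zc3h6, which encodes a zinc finger protein (1.09, and 1.21 without replicate 3), and Dync2li1, a cilium motor subunit (0.96 and 1.02), rose as much or more without replicate 3 as with it.

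Under the same ranking, the steepest fall was that of Cacna1a (chr8:84388440-84640246), which encodes the pore of the P/Q-type voltage-gated calcium channel. It stood at 24.4, 24.6 and 25.1 CPM with DMSO and at 8.24, 8.82 and 5.3 with BMS204352. Here too, groups that did not overlap were a condition of the ranking. The fall was 3.32-fold (log2 −1.73 ± 0.19, edgeR adjusted p = 1.99e-05), and 2.88-fold without replicate 3. Slc5a5, the sodium-iodide symporter gene, went from 22.4, 22.5 and 21.7 CPM to 6.27, 10.1 and 4.83 (log2 −1.66 ± 0.22, edgeR adjusted p = 4.89e-05, and −1.44 without replicate 3).

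Txnip (chr3:96557957-96561883), which encodes an arrestin that limits glucose uptake and is induced by glucose, went from 7.88, 7.94 and 7.93 CPM to 3.3, 3.57 and 3.05. The libraries of each group lay close together, and the log2 fall was −1.25 ± 0.17 with replicate 3 and −1.20 without it (edgeR adjusted p = 5.09e-06 and 2.23e-05). Its relative Arrdc3 moved the other way, from 28 to 29.7 CPM up to 40.1 to 54.9 (log2 0.74). The connexin gene Gja4 (−1.22, and −1.13 without replicate 3), the stress gene Gadd45b (−1.03 and −0.82), the mRNA-binding protein gene Igf2bp1 (−0.98 and −0.73), the homeobox gene Hoxd4 (−0.98 and −1.11), the lipase inhibitor Angptl4 (−0.98 and −0.86) and the Cdc42 effector gene Cdc42ep2 (−0.96 and −0.85) fell as well, in both fits. Prx (−0.71, and −1.03 without replicate 3), Krt80 (−0.95 and −0.98) and Sulf2 (−0.89 and −0.97) fell by more when replicate 3 was left out. The annotation places Gadd45a (19.1%), Txnip (19.4%), Hoxd4 (13.2%), Chchd10 (11.4%) and Ddit3 (10.9% of exon bases) partly over other gene models, and whether counting used strand is not given, so a small part of their counts may belong to those models.

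**Figure D2:**
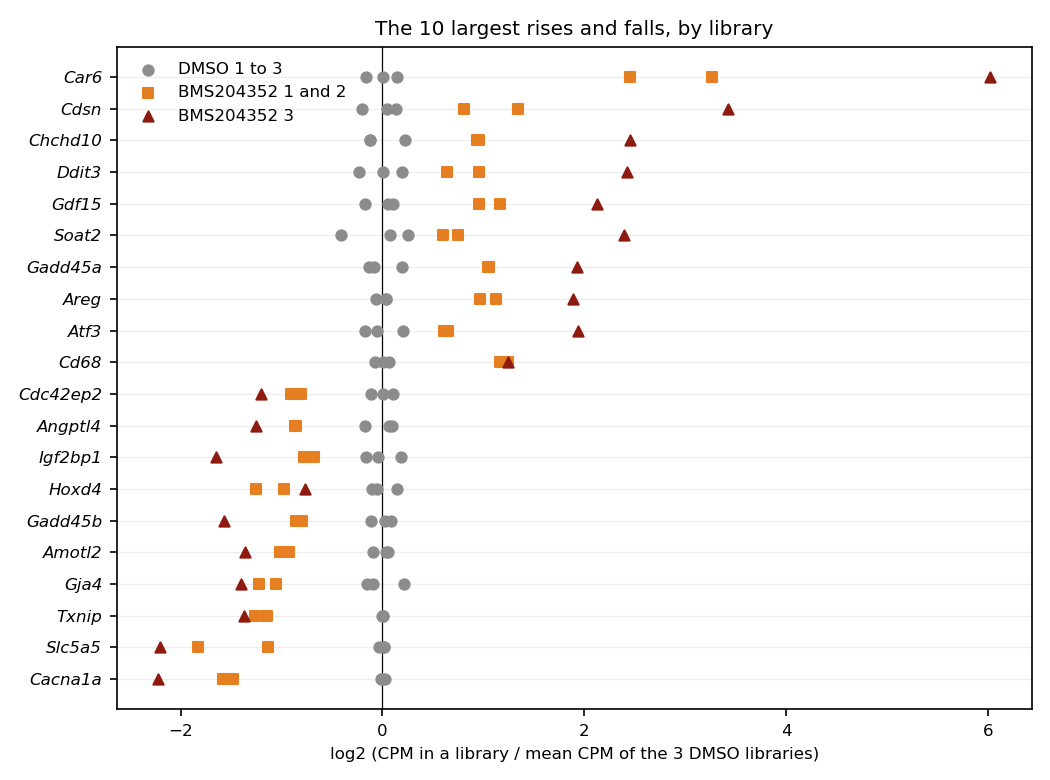
Shown are the 10 largest rises and 10 largest falls among genes whose log2 CPM averaged 2 or more, chosen with no overlap between groups. Values are the log2 of each library's CPM over the mean of the 3 DMSO libraries (horizontal axis). Grey circles are DMSO, orange squares BMS204352 replicates 1 and 2, and dark triangles replicate 3, which is the outermost treated library for most rises and level with the others for Cd68.

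In the amino acid stress response list, 31 of the 46 tested genes were higher (67.4%, against 11.3% of all genes) and 1 was lower. The list's median log2 change was 0.34 with replicate 3 and 0.21 without it, against 0.00 over all genes in both fits. Without replicate 3, 27 were higher and 1 lower, against 8.6% of all genes higher and 8.58% lower. Those 2 shares are also the ones for every list count without replicate 3 below. Of the list's genes, 28 were called in both fits. The median of the list's 45 members at 1 CPM or more was 0.251 and 0.171 above the DMSO mean in BMS204352 replicates 1 and 2, and 0.578 above it in replicate 3.

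Many of these genes are known to carry a binding site for ATF4 and C/EBP factors near their start. The motif TGATGNAA, or its reverse complement TTNCATCA, was searched on both strands in RefSeq promoters of the GRCm38.p6 build, from 250 bases before to 50 after the start. It was found in 12 of the 24 higher members with a promoter sequence (50%), in 2 of the 13 other members, and in 269 of 10106 tested genes with a promoter sequence (2.66%). Of genes higher outside the list, 3.71% held it, and of all lower genes, 1.93%. The list holds genes that ATF4 is known to switch on, so its share above that of all genes follows from how it was chosen. The difference between its higher and its other members was not tested. A match describes the letters in the window and does not show that a factor binds there. The pieces below, with the motif in capitals and 5′ to 3′ on the gene's strand, come from 4 members that rose. They are shown because these members belong to 4 different steps: glutathione cleavage, proline synthesis, a mitochondrial gluconeogenic enzyme and tRNA loading.
Chac1, chr2:119351019-119351086, plus strand: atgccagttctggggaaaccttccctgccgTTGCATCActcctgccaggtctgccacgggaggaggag
Pycr1, chr11:120643814-120643881, minus strand: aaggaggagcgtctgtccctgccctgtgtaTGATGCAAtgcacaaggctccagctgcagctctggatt
Pck2, chr14:55540133-55540200, plus strand: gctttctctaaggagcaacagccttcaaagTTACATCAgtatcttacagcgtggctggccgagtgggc
Gars, chr6:55037941-55038000, plus strand: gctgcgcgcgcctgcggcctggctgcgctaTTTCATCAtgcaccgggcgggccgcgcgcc
The motif began 193 bases before the start of Chac1, 103 before that of Pycr1 and of Pck2, and 30 before that of Gars.

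Among the enzymes that make amino acids, Pycr1, which catalyses the last step of proline synthesis, went from 17.1, 16.1 and 15.9 CPM to 27.8, 25.8 and 39 (log2 0.92 ± 0.14, edgeR adjusted p = 6.67e-05, and 0.72 without replicate 3). The proline enzyme Aldh18a1 (0.45), the serine enzyme Psph (0.45), the alanine aminotransferase Gpt2 (0.63) and asparagine synthetase Asns (0.31) rose, and the serine enzymes Phgdh and Shmt2 each rose by 0.22. Psat1, which acts between Phgdh and Psph, stood at −0.04 and did not pass. Pck2, which makes phosphoenolpyruvate in mitochondria, rose by 0.69 ± 0.10 from 136, 145 and 125 CPM to 205, 204 and 244. Chac1, which degrades glutathione, rose by the same log2 value of 0.69 from 10.6, 11.2 and 11.8 CPM to 16.6, 14.5 and 23.

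The tRNA synthetase genes rose by smaller steps: Sars by 0.42, Gars by 0.37, Eprs by 0.35, Lars by 0.29 and Aars by 0.26. Gars went from 488, 474 and 469 CPM to 583, 564 and 692. Every treated library lay above every DMSO library, as in 2266 of all 13357 genes tested (17%). The synthetase genes Tars (0.16) and Iars (0.20) passed with replicate 3 and did not pass without it (0.07 and 0.08). Of the stress factors, Sesn2, which restrains growth signalling when leucine is short, went from 42, 47.8 and 47.6 CPM to 72.5, 60.6 and 170 (1.16, and 0.55 without replicate 3, a call lost without any 1 DMSO library), and Trib3, a pseudokinase that dampens ATF4, rose by 0.77 but did not pass without replicate 3 (0.44, adjusted p = 0.0898).

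The carriers divided. Slc7a3, which imports arginine and lysine, rose by 1.09 ± 0.23 from 11.6, 13.7 and 12.3 CPM to 22.1, 18.6 and 38.6. The neutral amino acid carrier Slc38a2 fell by 0.23 on the log2 scale (edgeR adjusted p = 0.00145) and was the list's 1 lower gene. The large neutral amino acid carrier genes Slc7a5 (−0.02) and Slc3a2 (−0.04) and the cystine carrier Slc7a11 (0.28) did not pass. Atf4 mRNA stood at 487, 501 and 482 CPM with DMSO and at 556, 474 and 664 with BMS204352, so the groups overlapped, and its log2 difference of 0.21 (95% interval 0.03 to 0.39) did not pass (edgeR adjusted p = 0.0884). Ppp1r15a, which encodes the GADD34 subunit that restarts translation, stood at 49.4, 51.3 and 47.8 CPM with DMSO, 56.1 and 51.7 in BMS204352 replicates 1 and 2, and 166 in replicate 3. That library alone was high, and the gene did not pass with it (0.90, adjusted p = 0.0906) or without it (0.13, adjusted p = 0.64).

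**Figure D3:**
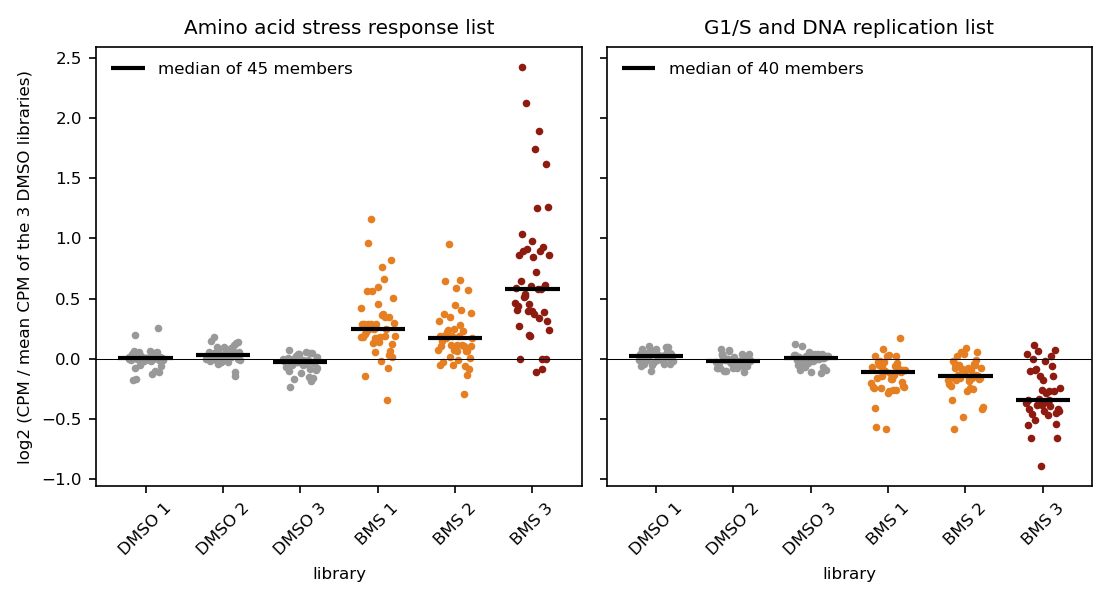
Each point is a member at 1 CPM or more, as the log2 of its CPM in a library over the mean of the 3 DMSO libraries (vertical axis), for 45 amino acid stress response genes (left) and 40 G1/S and DNA replication genes (right), and black bars are medians. In replicate 3 the medians stand at 0.578 and −0.339, farther from 0 than in replicates 1 and 2.

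Cell cycle genes that passed were lower. Of 40 genes of the G1/S transition and DNA replication, 22 fell (55%, against 11.3% of all genes) and 0 rose at adjusted p below 0.05, with a median of −0.19. Without replicate 3, 16 fell and 0 rose (median −0.12), against 8.58% of all genes lower. Cdc6, which loads the replicative helicase, went from 51.7, 54.6 and 53.9 CPM to 36.1, 35.7 and 33.9 (log2 −0.60 ± 0.06, edgeR adjusted p = 1.32e-07, and −0.57 without replicate 3). E2f7, a repressor of the E2F family, went from 56.7, 56.4 and 60 CPM to 38.5, 41.3 and 31.1 (−0.64). The cyclins Ccne2 (−0.38), Ccne1 (−0.33), Ccnd1 (−0.24) and Ccnd3 (−0.24), the sliding clamp Pcna (−0.29), the helicase subunit Mcm5 (−0.31) and the thymidylate synthase Tyms (−0.35) fell in both fits. The replication genes E2f1 (0.07), Mcm2 (−0.06) and Cdt1 (−0.06) did not pass. Of 33 genes of G2 and mitosis, 13 fell (39.4%, against 11.3% of all genes) and 0 rose (median −0.14). The falls were led by the centromere histone Cenpa (−0.32), the cytokinesis motor Kif23 (−0.28) and the mitotic cyclin Ccna2 (−0.25). Without replicate 3, 6 of the 33 passed, all lower (median −0.08), against 8.58% of all genes lower, and 5 of them were called in both fits. Mki67 (−0.06) and Top2a (0.07), widely used marks of dividing cells, did not pass.

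Of 28 tested p53 targets, 11 were higher (39.3%) and 5 lower (17.9%), against 11.3% of all genes each way. The counts were 8 and 4 without replicate 3. The cell cycle inhibitor Cdkn1a (p21) went from 63.3, 66.3 and 61.4 CPM to 83.8, 78.3 and 113 (log2 0.54 ± 0.13, edgeR adjusted p = 0.00954, and 0.35 without replicate 3). Rrm2b, a ribonucleotide reductase subunit (0.65), and Mdm2, the ubiquitin ligase that degrades p53 (0.24), rose too. Gdf15 and Sesn2, both also in the amino acid stress list, and Gadd45a were the list's other large rises that passed in both fits. The relatives of Gadd45a went down: Gadd45b by −1.03 and Gadd45g by −0.64. Bax (−0.05) and Ccng1 (−0.12) did not pass.

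Of 32 tested oxidative stress genes, known as targets of the transcription factor NRF2, 11 rose (34.4%) and 2 fell (6.25%). The share of all genes was 11.3% each way, and without replicate 3 the list counts were 12 and 2. The iron store gene Fth1 was at 4580 to 4670 CPM with DMSO and 5583 to 6213 with BMS204352 (0.34 ± 0.03, edgeR adjusted p = 1.83e-08). The aldo-keto reductase Akr1b8 (0.70), the haem-degrading enzyme Hmox1 (0.51), the sulfiredoxin Srxn1 (0.40), catalase Cat (0.36), the exporter Abcc1 (0.29) and the quinone reductase Nqo1 (0.33) rose. The glutathione synthesis genes Gclc (−0.03) and Gclm (0.13) and the thioredoxin reductase Txnrd1 (0.07) did not pass. Of 15 mitochondrial stress genes, 5 rose (33.3%, against 11.3% of all genes) and 0 fell, in both fits. The genes that rose were the matrix protease Lonp1 (0.51, and 0.32 without replicate 3), the chaperones Dnaja3 (0.46), Hspa9 (0.32) and Trap1 (0.24), and the protease Spg7 (0.28). Among the transcripts that mitochondria themselves encode, mt-Nd1 (−0.63) and mt-Cytb (−0.59) fell, in both fits, and lost the call without DMSO replicate 1. mt-Co1 passed as higher (0.61, edgeR adjusted p = 0.0277) but its groups overlapped, and without replicate 3 it did not pass (0.41, adjusted p = 0.128). Of 38 respiratory subunit genes encoded in the nucleus, 2 were higher (5.26%) and 0 lower, under the 11.3% of all genes each way. The counts were 3 and 0 without replicate 3.

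Endoplasmic reticulum genes passed in both directions, and heat shock genes that passed with all 3 replicates were lower. Of 28 endoplasmic reticulum genes, 3 were higher (10.7%) and 5 lower (17.9%, against 11.3% of all genes each way), and 4 and 4 without replicate 3. The stress sensors Atf6 (0.52, and 0.37 without replicate 3) and Ern1 (0.35 and 0.27) were up. The chaperone helpers Dnajc3 (−0.39, and −0.31 without replicate 3) and Manf (−0.32 and −0.23) were down. Of 22 heat shock genes, 0 were higher and 9 lower (40.9%, against 11.3% of all genes), with a median of −0.11. Among the 9 were Dnajb1 (−0.44) and Hsph1 (−0.30). Without replicate 3 the heat shock count was 4 lower, and 1 higher, Hsp90ab1. Hspa1b, another of the 9, has a near-identical neighbour, Hspa1a, so its counts are uncertain.

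Genes that make fatty acids and sterols were mostly lower where they passed. In fatty acid synthesis, 9 of 23 were lower (39.1%) and 3 higher (13%), against 11.3% of all genes each way. The counts were the same without replicate 3. The regulator Srebf1 went from 263, 266 and 267 CPM to 205, 211 and 183 (log2 −0.41 ± 0.05, edgeR adjusted p = 8.86e-07). The desaturases Scd2 (−0.33), Scd1 (−0.29), Fads2 (−0.33) and Fads1 (−0.24) and the elongase Elovl6 (−0.37) fell. The lipogenic regulator Thrsp fell too (−1.53), but did not meet the rule of level and group separation used for the largest falls above. Acsl1, which activates long-chain fatty acids, rose by 0.47. Fatty acid synthase itself, Fasn, stood at 0.06 and did not pass. In the sterol list, 9 of 28 were lower (32.1%, against 11.3% of all genes) and 0 higher. Among the 9 were the sterol carrier Stard4 (−0.48) and the reductase Dhcr7 (−0.32). Without replicate 3, 8 were lower and 1, Insig2, was higher. Of 34 lysosome and autophagy genes, 10 rose (29.4%) and 3 fell (8.82%), against 11.3% of all genes each way. The counts were 10 and 2 without replicate 3. Npc1, which exports cholesterol from lysosomes, rose by 0.53 ± 0.07, and by 0.40 without replicate 3. The regulator Tfeb itself fell by 0.41 on the log2 scale, a call lost without replicate 3.

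Glycolysis and hypoxia genes passed in both directions. Of 36, 7 were higher (19.4%) and 9 lower (25%), against 11.3% of all genes each way. The counts were 6 and 8 without replicate 3. The glucose carriers Slc2a3 (0.44) and Slc2a1 (0.34) were up. The lactate exporter Slc16a3 (−0.33), the glycolytic enzymes Pgam1 (−0.28) and Pfkl (−0.27) and the histone demethylase Kdm3a (−0.37) were down. Among immediate early genes, 11 of 33 were higher (33.3%) and 4 lower (12.1%), against 11.3% of all genes each way. The counts were 7 and 3 without replicate 3. Atf3, described above, rose most. The phosphatases that switch off MAP kinases rose too, Dusp4 from 111, 118 and 111 CPM to 160, 164 and 179 (log2 0.57 ± 0.05, edgeR adjusted p = 1.36e-08) and Dusp6 at 0.43. Jun and Myc each rose by 0.37, while Fos (0.05) and Egr1 (0.28) did not pass.

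Genes of the YAP-TEAD pathway, which reads cell shape and contact, passed in both directions. Of 21, 6 were higher and 6 lower (28.6% each way, against 11.3% of all genes), and 5 and 6 without replicate 3. Amotl2, a target and inhibitor of YAP, went from 105, 95.5 and 106 CPM to 50.7, 53.8 and 39.7 (log2 −1.08 ± 0.08, edgeR adjusted p = 1.36e-08, and −0.96 without replicate 3). Ccn2, a secreted matrix protein and a target of both YAP and MRTF, went from 6.9, 5.29 and 6 CPM to 2.13, 2.68 and 0.71 (−1.74 ± 0.25, edgeR adjusted p = 2.59e-05, and −1.33 without replicate 3), though 23.2% of its exon bases lie over another gene model. The LIM protein gene Ajuba (−0.57), the kinase gene Lats2 (−0.40) and Yap1 itself (−0.22) fell. The coactivator gene Wwtr1 (TAZ, 0.35), its partner Tead4 (0.35) and the ectonucleotidase Nt5e (0.49) rose, so targets and regulators of the pathway lay on both sides. Ccn1, the other classic target, overlapped between groups and did not pass (−0.04).

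Adhesion and matrix genes passed in both directions. Of 44 adhesion and cortical cytoskeleton genes, 10 were higher (22.7%) and 5 lower (11.4%, near the 11.3% of all genes each way). The counts were 11 and 3 without replicate 3. Among those that passed were the laminin receptor subunit Itga6 (0.44), the membrane-actin linker Ezr (0.22) and the actin-binding Parva (−0.39). Of 39 collagen and matrix genes, 5 were higher (12.8%) and 7 lower (17.9%, against 11.3% of all genes each way), and 3 and 6 without replicate 3, with the basement membrane protein Nid1 (0.34) up and the anchoring collagen Col7a1 (−0.33) and the collagen chaperone Serpinh1 (−0.24) down. Of 12 mesenchymal markers, 4 were higher (33.3%) and 1 lower (8.33%), against 11.3% of all genes each way. The counts were 5 and 1 without replicate 3. Prrx1, a homeobox factor, went from 15.3, 15.4 and 15.6 CPM to 25.1, 21.7 and 32.4 (log2 0.78 ± 0.10, edgeR adjusted p = 1.98e-06, and 0.61 without replicate 3), Vim rose by 0.19, and the repressor gene Snai1 fell (−0.45). Of 15 epithelial markers, 2 were higher (13.3%) and 3 lower (20%, against 11.3% of all genes each way), and 2 and 1 without replicate 3. The cadherin gene Cdh1, already sparse at 1.8, 1.17 and 1.27 CPM with DMSO, stood at 0.546, 0.642 and 0.379 with BMS204352 (−1.44 ± 0.40, edgeR adjusted p = 0.00825), a call lost without DMSO replicate 1 (−1.22). Of 23 NF-kB and chemokine genes, 1 was higher (4.35%) and 4 lower (17.4%), against 11.3% of all genes each way. The counts were 0 and 4 without replicate 3. With all 3 replicates the lower genes were the inhibitor-family genes Nfkbia (−0.39), Nfkbiz (−0.51) and Nfkbie (−0.60) and the subunit Rela (−0.20). Without replicate 3, Nfkbie stood at −0.62 and did not pass (adjusted p = 0.0537). Of 37 interferon and antigen presentation genes, 4 were higher (10.8%) and 3 lower (8.11%), at or under the 11.3% of all genes each way, and 4 and 2 without replicate 3, with the class I genes B2m (0.23) and H2-D1 (0.23) and the peptide transporter Tap1 (0.33) up and the transcription factor Irf1 (−0.53) down, in both fits.

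In the MRTF-SRF list, which bears on the question of the series, 5 of 36 were higher and 5 lower (13.9% each way, near the 11.3% of all genes), and 5 and 2 without replicate 3, with a median of −0.06. Mrtfa stood at 57.4, 65.8 and 62.4 CPM with DMSO and at 68.6, 67.5 and 79.6 with BMS204352, a log2 difference of 0.22 ± 0.07 that passed with replicate 3 (edgeR adjusted p = 0.0151) and not without it (0.14, adjusted p = 0.129). Its partner Srf (−0.15, 95% interval −0.27 to −0.03) and Mrtfb (0.04, −0.09 to 0.17) did not pass. The actin gene Actb went from 5073, 5000 and 4918 CPM to 4385, 4564 and 3982 (−0.21 ± 0.04, edgeR adjusted p = 0.000207), and the tropomyosin Tpm1 fell too (−0.35). Acta2, smooth muscle actin, lay near the threshold and did not pass (−0.40, −0.69 to −0.10, edgeR adjusted p = 0.0533). It stood at 86.7, 89.7 and 87.7 CPM with DMSO and at 71.4, 79.7 and 49.4 with BMS204352. Without replicate 3 it stood at −0.22 and did not pass (edgeR adjusted p = 0.0596). Acta2 did pass with DESeq2, on halved counts, with a filter of 1 CPM in 3 libraries, and without BMS204352 replicate 2 (−0.53). The adhesion protein gene Vcl (0.02, −0.10 to 0.13) and Myl9 (−0.37) did not pass, though 25.5% of the exon bases of Vcl lie over another gene model. The actin-binding gene Pdlim5 was the largest rise of the list that passed (0.39), in both fits.

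Of 18 BK and KCNQ genes, the channels that BMS204352 is known to open and their subunits, 3 reached the filter. Kcnma1, the pore of the BK channel, had 4, 0 and 0 counts with DMSO and 4, 0 and 26 with BMS204352, and was not tested. Kcnq3 and Kcnmb2 had 0 counts in all 6 libraries. Kcnq5 stood at 19.1, 18.8 and 21.5 CPM with DMSO and 22.1, 23.6 and 34.4 with BMS204352. It passed with replicate 3 (0.44 ± 0.13, edgeR adjusted p = 0.0206) and not without it (0.21, adjusted p = 0.208). Kcnq1 (−0.23) did not pass. Of 19 other potassium channel, pump and cotransporter genes, 2 were higher (10.5%) and 4 lower (21.1%, against 11.3% of all genes each way), and 1 and 5 without replicate 3. Kcnh2, the hERG channel, went from 25.6, 28.9 and 26.4 CPM to 39.4, 39.7 and 56.8 (0.76 ± 0.11, edgeR adjusted p = 8.26e-05, and 0.56 without replicate 3), and the intermediate-conductance calcium-activated channel Kcnn4 fell from 128, 121 and 124 CPM to 105, 98 and 113 (−0.23, and −0.29 without replicate 3), a call lost without BMS204352 replicate 2. The sodium pump subunit Atp1b3 (−0.27) and the channel subunit Kcnab2 (−0.27) fell in both fits. Of 33 calcium genes, 6 were higher (18.2%) and 4 lower (12.1%), against 11.3% of all genes each way. Without replicate 3, only 3 were higher and 2 lower, against 8.6% and 8.58% of all genes. Beside Cacna1a, the calcium genes that passed included the mitochondrial uniporter Mcu (0.28) and the store sensor Stim2 (0.25). The store-operated entry genes Orai1 (0.05) and Stim1 (−0.05) and the stretch-gated channel gene Piezo1 (0.13) did not pass.

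**Figure D4:**
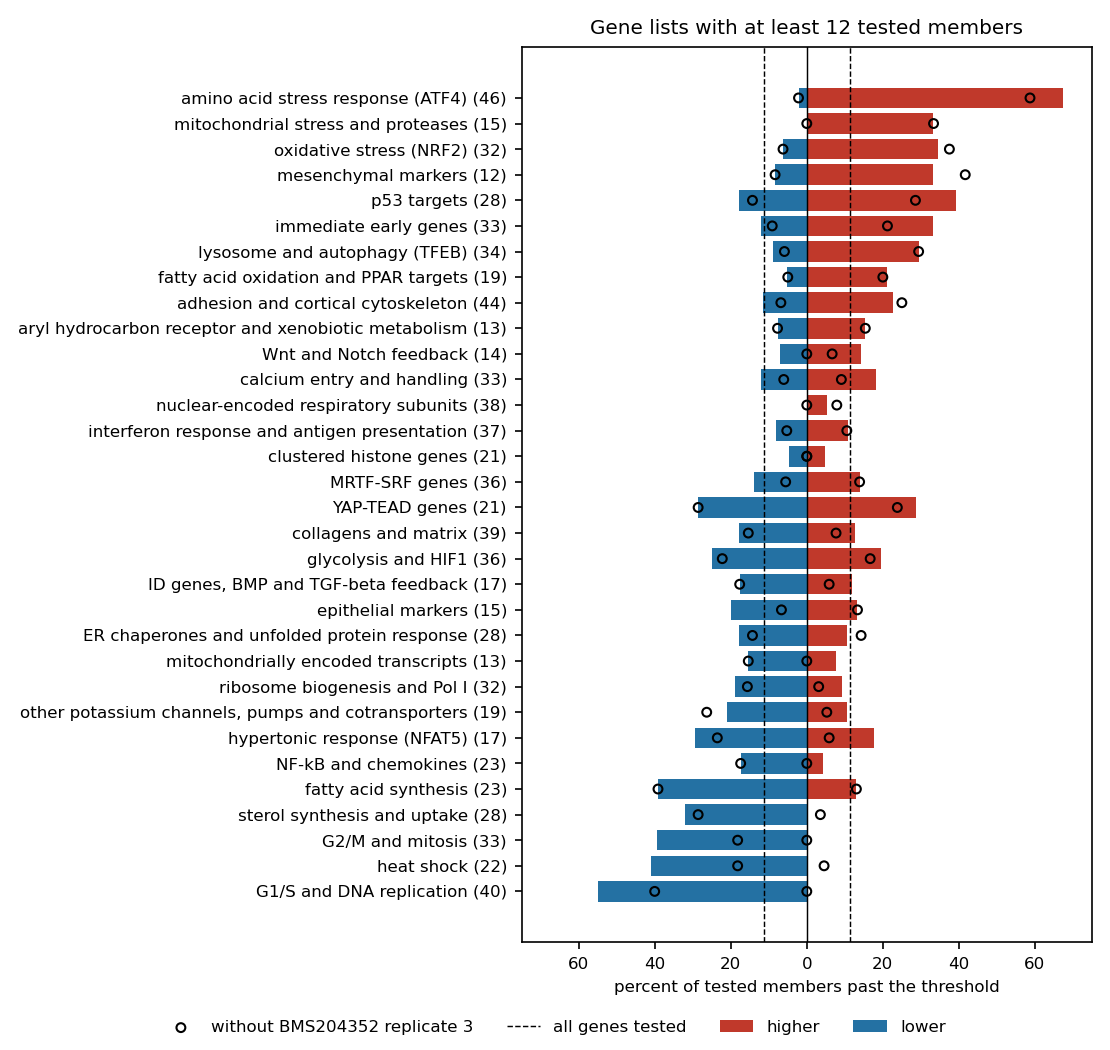
Percent of tested members past the threshold in each list with at least 12 tested members (number in brackets), higher in red to the right and lower in blue to the left. Open circles give the same without BMS204352 replicate 3, where 8.6% of all genes were higher and 8.58% lower. Dashed lines give the share over all genes with replicate 3, 11.3% in each direction. Amino acid stress genes reach 67.4% higher and G1/S genes 55% lower.

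BMS204352 replicate 3 differed from replicates 1 and 2 in named genes as well as in size. Among genes whose log2 CPM averaged 4 or more, it lay highest above their mean for Ppp1r15a (by 1.63 on the log2 scale), Ddit3 (1.62), Sesn2 (1.36), Atf3 (1.31), the acyl-CoA thioesterase gene Acot2 (1.16) and the repressor gene Zbtb18 (1.12). It lay farthest below for Padi3 (−1.15), which citrullinates proteins, and the sulfotransferase gene Chst12 (−0.93). These differences are those of 1 library and have no test. For the 1174 genes called higher without it, replicate 3 was the highest treated library in 48.2% and the lowest in 35.5%, against 37.5 and 39% over all genes tested. For the 1172 called lower, it was the lowest in 48% and the highest in 34.2%. Its mitochondrial share was also the highest of the 6, and the part of that in these results was not tested.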

How the data were processed

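The authors deposited whole-number counts per gene, made with STAR on GRCm38 and featureCounts, per the submitters' processing notes; tool versions, strand and mate handling: not given in the sources used here. Among counts from 1 to 10, 83.4% were even, so tests were also run on halved counts. The kits were Qiagen RNeasy and NuGen Universal Plus mRNA, per the labels. All 36 columns were matched by title. The 2 gene IDs of human form (6 counts) were left out of 32287. Symbols came from GENCODE vM21; 127 IDs had none and held 0.0416% of counts.

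Genes were kept with filterByExpr (minimum count 10, minimum total 15), scaled by TMM (factors 0.99 to 1.01) and tested with edgeR 4.0.16 in R 4.3.3 (limma 3.58.1), by the robust quasi-likelihood test over the 18 E0771 libraries. The other 12 E0771 libraries entered the filter, the scaling and the dispersion (common dispersion 0.005), and not the contrast itself. The fit without BMS204352 replicate 3 was refiltered with a smaller least group, so more genes entered it. P-values were adjusted by Benjamini-Hochberg over all genes tested, with a threshold of 0.05. The script was tested on simulated counts. Alternatives were DESeq2 1.42.0, its size factors, other filters, the replicate number as a block, the compared libraries alone, and leaving out each library. Values after ± are SE.

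Members and lists were chosen with earlier results of these data known. Named genes were the 10 largest rises and falls among genes whose log2 CPM averaged 2 or more, with groups apart, the 8 largest without replicate 3, channel and MRTF-SRF genes, the 4 or fewer members of lowest adjusted p per list, and the 6 genes at each end that set replicate 3 apart; other list members were named after their values were seen. A few genes the rule selects are not reported here.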

Additional observations from a re-analysis of the deposited data

How the results depend on the processing

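Every alternative run left the count of genes past the threshold within 1.5 times the value reported. With 18 libraries (3028) the count was 3304 by DESeq2, 3314 with the replicate block, 3105 on halved counts, 2037 with the 6 compared libraries alone, and 2183 to 3005 with 1 library left out. Without BMS204352 replicate 3 (2346) it was 2646, 2569, 2379 and, with 5 libraries alone, 2719, and 1743 to 2066 with a DMSO library left out as well. Same-numbered libraries deviated together with r = 0.0871, 0.191 and 0.123, each number's best match, but the labels give no pairing. Of 151 named genes that passed, 37 lost the call in at least 1 setting and 0 changed sign. Calls were also gained by named genes that had not passed. This held for 6 without BMS204352 replicate 2, 3 with no filter, 2 with the replicate block and 2 without BMS204352 replicate 1. Among genes that did not pass, leaving out 1 library moved Ccn1 from −0.25 to 0.13, Mrtfb from −0.03 to 0.11, Kcnq1 from −0.52 to 0.02 and Vcl from −0.05 to 0.09, and so changed their sign. The cause was not tested. Depth limits the sparse channel genes, of which Kcnma1 had at most 26 counts.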

Other observations

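Groups that none of the lists above held were looked at after their values were seen, so their counts are descriptions. Of 78 cytosolic ribosomal protein genes tested, 48 were higher and 0 lower with BMS204352 (median log2 0.11), against 11.3% of all genes each way, and 47 and 0 without replicate 3, against 8.6% of all genes higher. Together they took 6.19 to 6.54% of counts with DMSO and 6.8 to 6.94% with BMS204352, so the groups did not overlap. The step was small in each gene: Rpl3, a subunit of the large ribosome, stood at 1056, 1104 and 1086 CPM with DMSO and at 1199, 1238 and 1241 with BMS204352. Many of these genes have near-identical processed copies, so single values are uncertain.

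Of 76 splicing factor genes, 33 were lower and 2 higher (median −0.12), against 11.3% of all genes each way, and 26 and 2 without replicate 3, against 8.58% of all genes lower. Their share of counts was 1.99 to 2.04% with DMSO and 1.73 to 1.85% with BMS204352. Hnrnph1, which binds G-rich RNA, went from 273, 253 and 264 CPM to 161, 171 and 138 (log2 −0.74, edgeR adjusted p = 1.63e-05). Sfpq, a paraspeckle and splicing protein gene, went from 532, 539 and 547 CPM to 397, 385 and 369 (−0.49, edgeR adjusted p = 1.22e-08). The 2 that rose were Prpf40b (0.71) and Luc7l (0.19).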
